A study of Homo sapiens with 2 samples.

Results

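The peaks described here are those on chromosome 8 in a chromatin immunoprecipitation with sequencing (ChIP-seq) of NUSAP1 in AsPC1 cells. They were taken from the deposited peak list by the chromosome of the summit, the point of highest signal of a peak, and number 258 of 9043. Chromosome 8 and its stretch from 100 to 130 Mb were chosen by their measured number of summits along the genome. AsPC1 is an established human cell line of pancreatic ductal adenocarcinoma, grown in DMEM with fetal bovine serum and fixed with formaldehyde. NUSAP1 was precipitated with a Proteintech antibody in 1 library, and a second library was made from input chromatin without antibody, for 2 libraries in all. The peak list of the precipitate was the data used, so there were no replicates, and differences between stretches of the chromosome are given as counts and medians with counting intervals rather than tests between samples. The list holds no expression values, so the identity of the cells could not be checked against marker genes.

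NUSAP1, nucleolar and spindle-associated protein, binds microtubules and chromosomes and is best known for organising the mitotic spindle. Chromosome 8 has a short arm with large gene clusters, such as those of the defensins, and a long arm that carries the MYC gene near its far end. MYC encodes a transcription factor that drives growth and metabolism, and it lies in a region poor in protein-coding genes but rich in long non-coding RNA genes such as PVT1, CASC8 and CCDC26. The distal long arm is often gained in carcinomas. No copy number was measured in the data used here.

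The summits of chromosome 8 were concentrated in a stretch of the long arm. Between 100 and 130 Mb (genome build hg38, counted from the tip of the short arm) lay 188 of the 258 summits, or 72.9% (95% Wilson interval 67.1 to 77.9), on 20.7% of the 145 Mb spanned by genes and peaks. The density there was 6.27 summits per Mb (exact 95% Poisson interval 5.40 to 7.23). The remainder of the chromosome had 70 summits, or 0.608 per Mb (0.474 to 0.769), a ratio of 10.3. The stretch was selected on that density, so this ratio is a description with no test. All intervals cover counting error only.

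Chromosome 8 as a whole was not rich in summits. It had 1.78 per Mb (1.57 to 2.01), against 3.03 (2.97 to 3.09) on the other chromosomes from 1 to 22 and X, and ranked 17 of the 23 chromosomes by density. Its densest 5 Mb window ranked 6 among the densest windows of each chromosome. The dense stretch thus had 2.07 times the mean density of the other chromosomes, while the remainder of chromosome 8 lay below that mean.

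From the tip of the short arm to 45 Mb, 3 summits were listed in 45 Mb (0.0667 per Mb, 0.0137 to 0.195). They lay at 8287443, at 8747345 and at 38376190, the last in the body of NSD3, which encodes a histone methyltransferase. Of the 9 windows of 5 Mb in this stretch, 7 had no summit, and a count of 0 allows up to 3.69 summits in a window at the upper end of the exact Poisson interval. From 45 to 100 Mb there were 54 summits (0.982 per Mb), with 0 to 12 in a window. The window with 12 ran from 45 to 50 Mb, and the window from 75 to 80 Mb had none.

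The count then rose over several windows. It was 6 from 95 to 100 Mb, 13 from 100 to 105 Mb, 22 from 105 to 110 Mb, 39 from 110 to 115 Mb and 46 from 115 to 120 Mb (33.7 to 61.4). It was 31 from 120 to 125 Mb and 37 from 125 to 130 Mb, the window that contains MYC. The intervals of the 4 windows from 110 to 130 Mb overlap one another, so no order among them is read. Among the 596 full 5 Mb windows of all chromosomes, whose median count was 13, these 4 windows ranked between 12 and 60. From 110 to 130 Mb the density was 7.65 per Mb, against 3.50 from 100 to 110 Mb. Each of the 25 windows of 1 Mb from 105 to 130 Mb held at least 1 summit, and the fullest held 13. The window from 100 to 101 Mb held 0, and those from 123 to 124 Mb and from 124 to 125 Mb held 2 and 1.

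**Figure D1:**
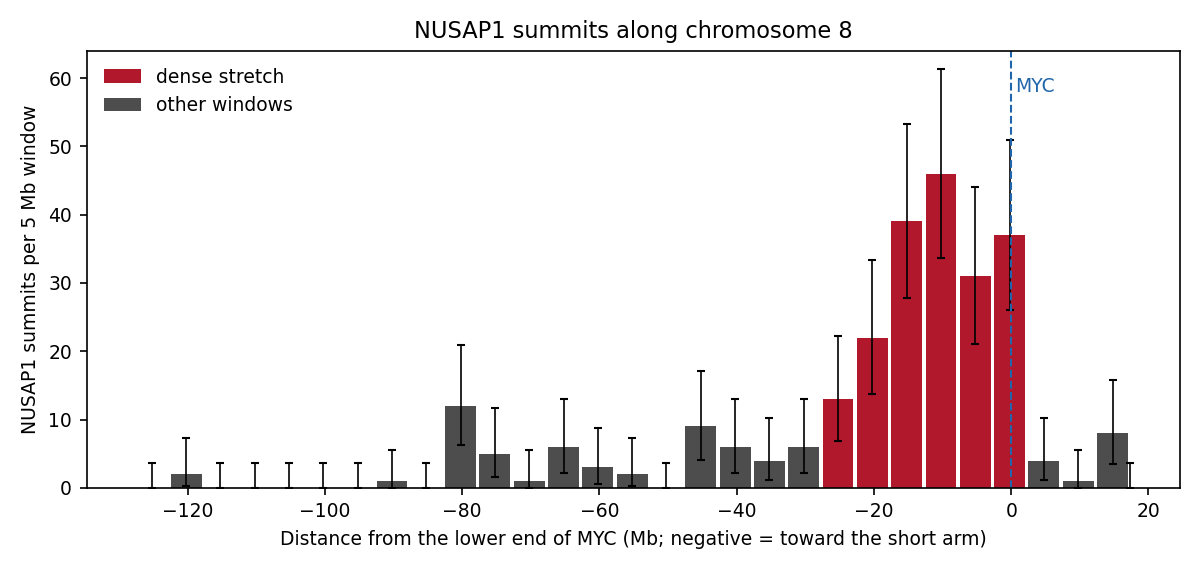
NUSAP1 summits in 5 Mb windows of chromosome 8, placed by the distance of the window's centre from the lower end of MYC in Mb. Bars are counts, error bars are exact 95% Poisson intervals, and the last bar is a window of 0.056 Mb. The 6 windows of the dense stretch, in red, hold 13 to 46 summits, and no other window exceeds 12.

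Beyond MYC the density fell, with an edge near 130 Mb. Windows of 1 Mb from 126 to 130 Mb held 13, 11, 3 and 5 summits in order, and those from 130 to 132 Mb held 0. The last summit of the dense stretch lay at 129789880, 3.26 kb beyond the upper end of GSDMC, a gasdermin gene. The next was at 132147168, in the body of the potassium channel gene KCNQ3, 2.36 Mb further on, a gap that ranked 11 by length of the 257 on the chromosome. At 100 to 130 Mb the median gap between neighbouring summits was 86.3 kb (quartiles 34.5 and 198) and the longest was 974 kb. The gap of 2.36 Mb holds 6 protein-coding genes in full, among them CYRIB, ASAP1, which encodes a regulator of ARF GTPases, and the adenylyl cyclase gene ADCY8.

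The windows on either side of 130 Mb held 37 and 4 summits. This fall of 33 was the largest between neighbouring full 5 Mb windows of any chromosome, out of 573 pairs, and 3 pairs changed by as much in either direction. The edge was chosen for this difference, so its rank is a description with no test. Past 130 Mb there were 13 summits in 15.1 Mb (0.863 per Mb, 0.460 to 1.48), a density 7.26 times lower than at 100 to 130 Mb. The last 5 Mb window, from 140 to 145 Mb, held 104 protein-coding genes and 8 summits.

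The number of immunoprecipitated fragments at each summit, and the background expectation against which the caller judged them, were worked out from the deposited fold enrichment and p. The fold enrichment is the ratio of fragments to background, each with 1 added. On chromosome 8 the summits had 4 to 9 fragments. Those at 100 to 130 Mb had a median of 5 (quartiles 4 and 6), and the other chromosome 8 summits also had a median of 5 (4 and 5). Of the summits in the dense stretch, 29 (15.4%, 11.0 to 21.3) had 7 or more fragments, against 5 of 70 elsewhere on the chromosome (7.14%, 3.09 to 15.7) and 12.2% in the full list. The intervals overlap.

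The background expectation was higher in the dense stretch. At 100 to 130 Mb it had a median of 0.991 fragments (quartiles 0.906 and 1.13), and in the remainder of the chromosome 0.708 (0.708 and 0.751), near the lowest value of the list. On the other chromosomes the median was 0.906 (0.765 and 1.06). A background of no more than 0.712 was found at 8 of the 188 summits in the dense stretch (4.26%, 2.17 to 8.17) and at 51 of the other 70 (72.9%, 61.5 to 81.9). Over the full list 20.1% of summits had so low a background. At a fixed 5 fragments, the median background was 0.991 in the dense stretch (64 summits) and 0.712 elsewhere on the chromosome (33 summits). Summits with 4 fragments, the fewest listed, occurred up to a background of 1.08. Over the 16 windows of 5 Mb with 3 or more summits, Spearman's rho between the median background and the number of summits was 0.84, a description of windows that share 1 library. Those of the dense stretch, chosen by number of summits, are among the 16. From 100 to 130 Mb their median backgrounds were, in order, 0.977, 0.850, 0.949, 1.01, 1.13 and 1.05. Their counts were 13, 22, 39, 46, 31 and 37, so the 2 orders differ within the stretch. The background came from the same calls as the summits, and its part in the density was not tested.

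Finer steps in the background allowed it to be read as a number of reads. Of the 258 background values, 34 stood at the lowest value, 46 at whole multiples of 0.712, and the others at whole multiples of 0.0142, each within 3e-05. The smaller step is the larger one times 199 bp, the smallest peak width, over 10 kb. This is the scale on which the caller, with its usual settings, counts control reads in the 10 kb around a summit. The settings and the control library are not given in the sources used here, so reading a step as 1 control read is inferred. Multiples of 10 steps may also come from a count in 1 kb, and 62 summits were of that kind.

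For the remaining 116 summits the steps give a number of control reads in 10 kb. In the dense stretch, 107 summits had a median of 69 (quartiles 64 and 74, range 53 to 104). Outside it, 9 summits had a median of 56 (range 53 to 64). The 2 ranges overlap from 53 to 64. The lowest background corresponds to 50 such reads, so summits with fewer in 10 kb cannot be told apart, and 31 of the 70 summits outside the dense stretch stood at that floor against 3 of 188 inside. Within the dense stretch the median was 69 from 100 to 105 Mb (5 summits), 57 from 105 to 110 Mb (12), 68 from 110 to 115 Mb (27), 71 from 115 to 120 Mb (29), 72.5 from 120 to 125 Mb (16) and 73 from 125 to 130 Mb (18). The values from 105 to 110 Mb were the lowest of the 6.

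The background was lower past 130 Mb than just before it, but it did not follow the count up to that point. In the 1 Mb windows from 126 to 130 Mb, with 13, 11, 3 and 5 summits, its median was 0.991, 1.02, 1.42 and 1.42. The last 10 summits before 130 Mb, over 1.85 Mb, had backgrounds of 1.08 to 1.56 with a median of 1.42. The first 5 summits after it, over 3.28 Mb, had backgrounds of 0.708 to 0.751, so the 2 sets did not overlap. The former had 5 to 8 fragments, with 7 or more at 6 of the 10, and the latter had 4 to 6. The median fold enrichments were closer, at 3.21 and 2.93. No listed summit of chromosome 8 had a caller's Poisson p above 0.00497. At such a limit a higher background requires more fragments, so fragments and fold are not independent of the background.

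**Figure D2:**
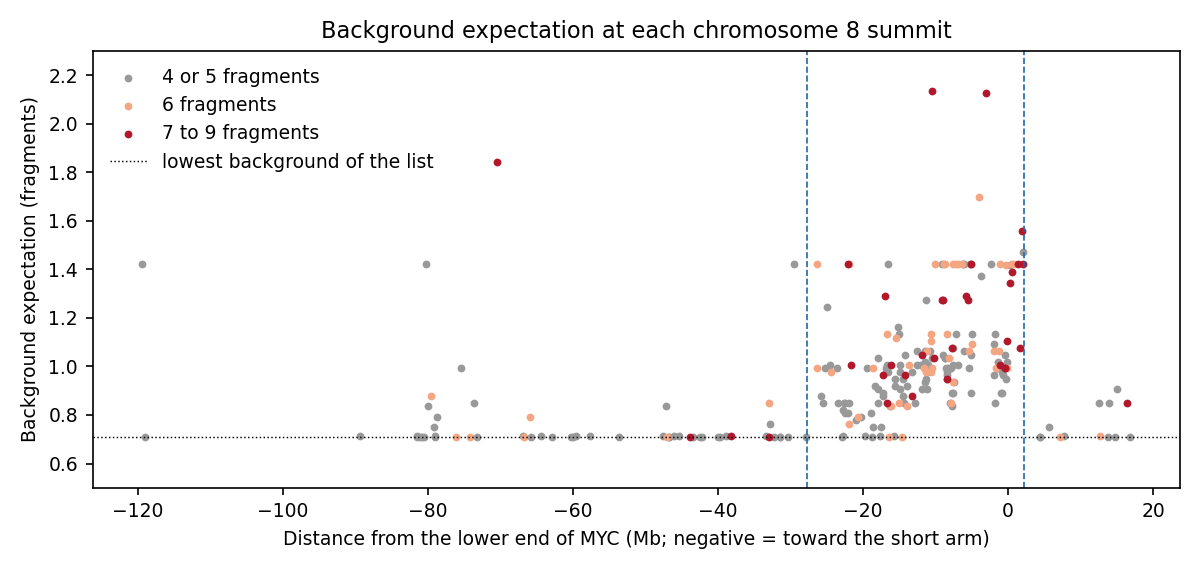
Background expectation in fragments at each of the 258 chromosome 8 summits, against the distance from the lower end of MYC in Mb. Points are coloured by the number of fragments at the summit, the dotted line is the lowest background of the list (0.708), and dashed lines mark the ends of the dense stretch. Most points between the dashed lines lie above the dotted line, and most of the others lie on it or just above it, at no more than 0.712.

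Fold enrichment did not follow the density. Its median was 2.99 (quartiles 2.63 and 3.39) at 100 to 130 Mb and 3.47 (2.93 and 3.51) in the remainder of chromosome 8. At 5 fragments the medians were 3.01 and 3.51, as a higher background lowers the ratio at an equal number of fragments. Of the 10 chromosome 8 summits with the highest fold enrichment (4.26 or more), 6 lay in the dense stretch, which held 72.9% of all 258. Of those with a caller's q under 0.5, it held 24 of 37 (64.9%, 48.8 to 78.2), and of those with 7 or more fragments, 29 of 34 (85.3%, 69.9 to 93.6).

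Support for single summits was weak. A q under 0.05 was reached by 2 of the 258 (0.775%, 0.213 to 2.78), against 1.48% in the full list, and 221 (85.7%) had q of 0.5 or more. The strongest summit had a fold enrichment of 5.09 (9 fragments over 0.963, q 0.0114) and ranked 51 in the full list by fold. Its peak spanned 110555919 to 110556150 with the summit at 110556019, inside the pseudogene LOC100132280 (110555387 to 110556525) and 580 kb from the nearest protein-coding gene, the potassium channel gene KCNV1. How reads that match several copies of a sequence were placed is not given in the sources used here. The other was at 144103793, with a fold enrichment of 4.87 (8 fragments over 0.850, q 0.0368). It stood 20 bp beyond the upper end of SHARPIN, a subunit of the linear ubiquitin ligase complex, and 668 bp below MAF1, whose product represses RNA polymerase III.

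The 10 summits with the highest fold enrichment also had the 10 smallest q. Among the other 8, INTS8, which encodes a subunit of the Integrator complex that processes small nuclear RNAs, held the summit at 94830928 in its body (fold enrichment 4.68, 7 fragments, q 0.0857). The summits at 83867419 (4.68), 315 kb from RALYL, and at 89522733 (4.67), in the non-coding gene LOC105375631, had the same q. Near MYC, the summit at 127268844 lay in the non-coding gene CASC21 with a fold enrichment of 4.52 (8 fragments, q 0.0857). Another, at 126580651 in LOC105375751, had 4.49 (8 fragments, q 0.0880), and that at 127530611, outside annotated coding and long non-coding genes, had 4.28 (8 fragments, q 0.162). The remaining ones, at 111041393 (4.32) and 114536690 (4.26), lay 1066 kb and 872 kb from the nearest protein-coding genes, KCNV1 and TRPS1. In all, 8 of the 10 were over 1 kb from any protein-coding gene body or end. Of all 258 summits of chromosome 8, 188 lay outside protein-coding gene bodies, so this count is not read as a trait of the 10.

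MYC itself (gene ID 4609, 127735434 to 127742951) had none in its body or near its ends. The nearest summits were 185 kb below it (127550512, fold enrichment 3.52, 6 fragments, q 0.753) and 198 kb above it (127940894, fold enrichment 3.41, 7 fragments, q 0.753). The gap of 390 kb between them ranked 19 by length among the 187 gaps of the dense stretch. From 127 to 128 Mb there were 11 summits, and 4 of them had 7 or more fragments.

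Of the 13 long non-coding genes listed around MYC, 6 held a summit and 7 did not. PVT1, the long non-coding gene next to MYC (127794524 to 128101256), held 2 summits in its body, with fold enrichments of 3.41 and 2.48, or 6.52 per Mb beside 6.27 for the dense stretch. CASC8 (127289676 to 127482139) and CASC21 (127244637 to 127392631), which overlap, each held 3, and 1 of these, at 127365219, was shared. In CASC21, 2 summits stood 2.38 kb apart with 7 and 8 fragments and fold enrichments of 4.02 and 4.52. CCDC26 (129351694 to 129680239), a non-coding gene despite its name, held 2 with 7 fragments each, at fold enrichments of 3.85 and 3.13. LOC105375751 (126557876 to 127021031) held 7, the most of any long non-coding gene on chromosome 8.

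Of 28 genes listed around MYC, 26 were in the gene table and 9 held a summit, in the body or at most 1 kb away (34.6%). Of the 26, 23 lie in the dense stretch, where 20.6% of all protein-coding and 23.1% of all long non-coding genes had one. All 9 lay at 100 to 130 Mb: PVT1, CASC8, CASC21, CCDC26, LINC00824, PRNCR1, whose summit also lies in the pseudogene SRRM1P1, GSDMC, NSMCE2, which encodes a SUMO ligase of DNA repair, and MTSS1, which encodes an actin-binding protein. The smallest q among them was 0.0857. The 17 without were MYC, CCAT1, CCAT2, CASC11, CASC19, PCAT1, PCAT2, POU5F1B, LRATD2, LINC00977, TRIB1, SQLE, WASHC5 and ZNF572, and beyond the edge CYRIB, ASAP1 and ADCY8. Summits came within 10 kb of PCAT2 (4.92 kb) and POU5F1B (5.98 kb), and SQLE, the squalene epoxidase gene of sterol synthesis, was 271 kb from its nearest. ADCY8 was 990 kb from its nearest summit, on the side of MYC.

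**Figure D3:**
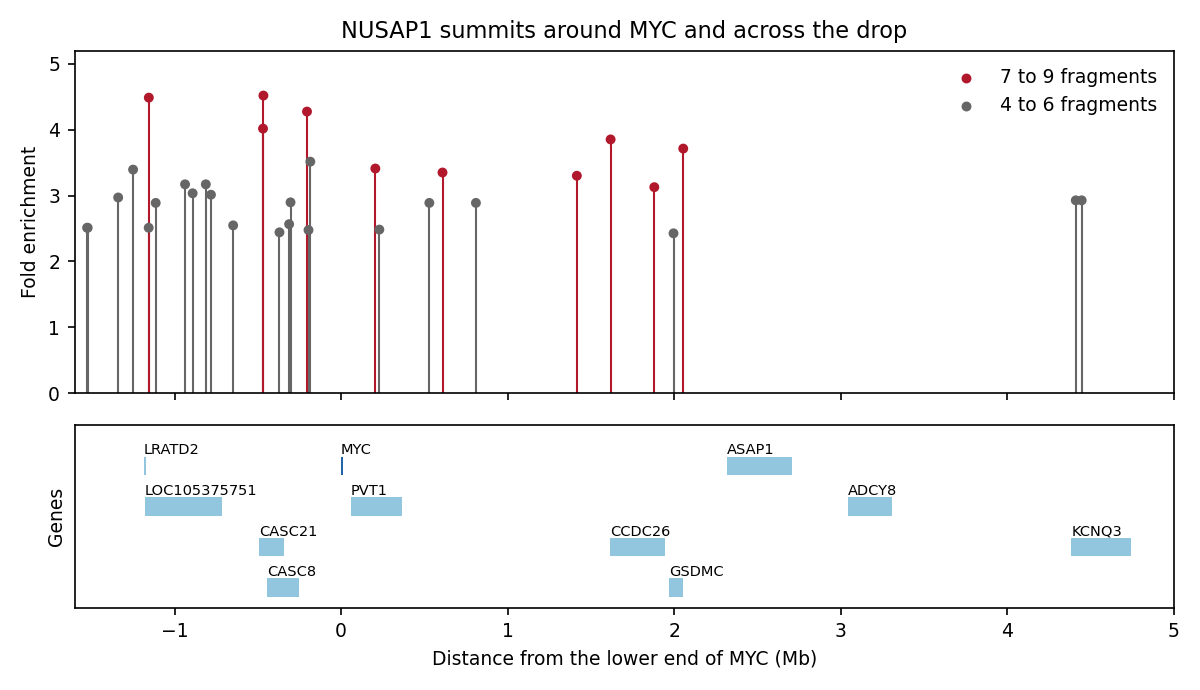
Fold enrichment of each NUSAP1 summit from 1.6 Mb before to 5 Mb past the lower end of MYC (upper panel, red for 7 to 9 fragments, grey for 4 to 6), above the extent of named genes (lower panel). Summits stand on either side of MYC but none within 185 kb of it, and none lie over ASAP1 or ADCY8, in the 2.36 Mb between GSDMC and KCNQ3.

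Of the 97 protein-coding genes of the dense stretch, 9 held 2 or more summits in the body. CSMD3 (112222928 to 113436939), a large gene for a membrane protein with CUB and sushi domains, held 9 over 1214 kb, or 7.41 per Mb, beside 7.65 per Mb of all sequence from 110 to 130 Mb. Its fold enrichments ran from 2.49 to 4.10 and none had 7 or more fragments. DEPTOR (119873722 to 120050918), an inhibitor of the mTOR kinase, held 5 in 177 kb, with fold enrichments of 2.64 to 3.85. COL14A1 (120124454 to 120373573), a collagen gene, held 5 in 249 kb (2.41 to 3.62), and SLC30A8 (116950217 to 117176714), a zinc transporter of islet beta cells, held 4 (2.42 to 3.54), of which 3 also lay in the overlapping non-coding gene LOC105375716. ZFPM2, a cofactor of GATA factors, SNTB1, a syntrophin, and COLEC10, a collectin, held 3 each. HAS2, the hyaluronan synthase, held 2 in 29.3 kb. The smallest q at any of these 8 genes was 0.418. RIMS2 (103500610 to 104256094), the remaining gene of the 9, held 2 in 755 kb, with fold enrichments of 2.51 and 2.70. Among other long genes of the stretch, SAMD12 (490 kb) and NSMCE2 (275 kb) held 1 each, and OXR1 (483 kb), EXT1 (317 kb) and TRPS1 (260 kb) none.

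Long non-coding genes with several summits were LOC105375716 (117084437 to 117520720) with 6, LINC00536 (115950511 to 116325059) with 5, and LINC01608 and LINC01151 with 3 each. LINC01151 is 23.7 kb long, and its 3 summits had neighbours at most 4.41 kb away. Outside the dense stretch, no gene of either kind held 3 summits in its body. INTS8, KCNQ3 and TRAPPC9, a subunit of a vesicle tethering complex, held 2 each, as did the non-coding gene LOC101929268.

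Of the 715 protein-coding genes of chromosome 8, 45 (6.29%, 4.74 to 8.32) held a summit or had one at most 1 kb away, against 13.6% of protein-coding genes over all chromosomes. At 100 to 130 Mb the share was 20 of 97 (20.6%, 13.8 to 29.7), and on the remainder of the chromosome 25 of 618 (4.05%, 2.75 to 5.90). Below 45 Mb it was 1 of 292. Genes with a summit in the dense stretch had a median length of 237 kb, and those without, 34.5 kb. For long non-coding genes the shares were 39 of 169 in the dense stretch (23.1%, 17.4 to 30.0) and 12 of 718 elsewhere on the chromosome (1.67%), beside 7.26% over all chromosomes.

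Summits on chromosome 8 were seldom at gene ends. Of the 258, 7 stood at most 1 kb from where a coding or long non-coding gene begins or ends (2.71%, 1.32 to 5.49), against 6.97% over all chromosomes and 7.09% (6.58 to 7.65) on the others. The intervals of chromosome 8 and the others did not overlap, with no test between samples possible. How much sequence lies at most 1 kb from a gene end is not set beside these shares, so they are not corrected for it. In the dense stretch there were 4 of 188 (2.13%, 0.830 to 5.34). A further 130 were in gene bodies away from the ends (50.4%, 44.3 to 56.4), close to the 51.1% of all chromosomes, and 121 (46.9%) were outside. The gene table gives no strand, so an end here is either end of a gene.

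At these ends stood 6 protein-coding genes, 0.839% of the 715, against 2.21% over all chromosomes. Beside SHARPIN and MAF1, a summit at 47736644 was shared by SPIDR, a scaffold gene of recombination repair, and CEBPD, which encodes a transcription factor of inflammation (fold enrichment 3.27, 5 fragments, q 0.779). It stood 338 bp beyond SPIDR and 269 bp below CEBPD. DPY19L4 had a summit 210 bp below its lower end (3.78, 6 fragments, q 0.433). In the dense stretch MTSS1 was the sole such gene, with a summit 505 bp inside its upper end (2.56, 7 fragments over 2.12, q 1).

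Summits did not gather where protein-coding genes were many. Over the 29 full 5 Mb windows of chromosome 8, Spearman's rho between protein-coding genes and summits was -0.30, given as a description because the windows share 1 library. With each gene counted in 1 window, that from 110 to 115 Mb had 1 protein-coding gene, CSMD3, and 39 summits. Within the dense stretch, 47 summits (25.0%, 19.4 to 31.6) lay in protein-coding genes, which cover 35.7% of it. The density was 4.39 per Mb inside them (3.23 to 5.84) and 7.31 per Mb outside (6.15 to 8.62). By 5 Mb window it was lower inside in 5 of the 6 windows and higher in that from 120 to 125 Mb (7.34 inside, 5.41 outside), where DEPTOR and COL14A1 lie in part or in full. The intervals for inside and outside overlapped in each of the 6 windows. From 45 to 100 Mb, 29.6% of summits lay in protein-coding genes, which cover 38.1% of that sequence. Over chromosome 8 the share was 27.1%, on 40.3% of the sequence. A share below the covered part was thus not particular to the dense stretch.

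**Figure D4:**
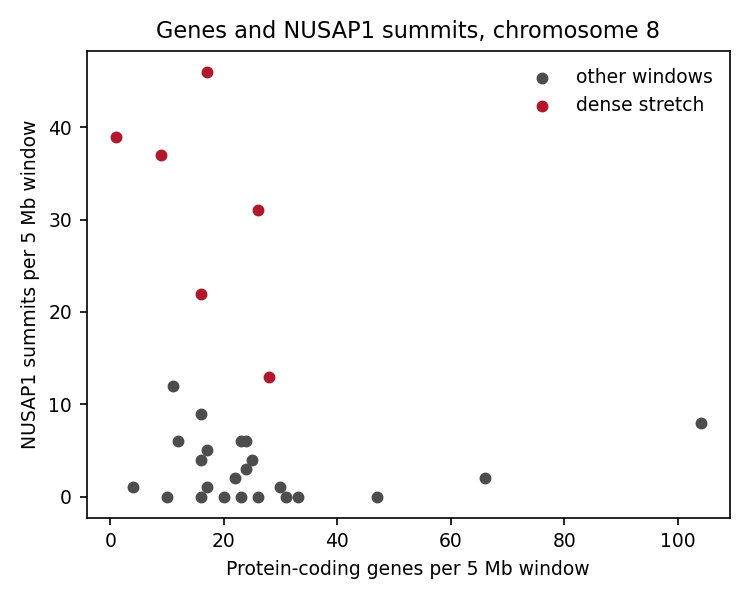
Protein-coding genes (x axis) and NUSAP1 summits (y axis) in each of the 29 full 5 Mb windows of chromosome 8, with the 6 windows of the dense stretch in red. The window with the most genes, 104, holds 8 summits, and a window with 1 gene holds 39.

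The 4 longest gaps of the dense stretch each held protein-coding genes in full. The longest, 974 kb, ran from 117618119 to 118591968 and contained EXT1, which encodes an enzyme of heparan sulfate synthesis. The next, 900 kb from 122766500 to 123666053, contained 11 protein-coding genes, among them the transcriptional regulators ZHX1 and ZHX2, the chromatin ATPase gene ATAD2, DERL1 of the endoplasmic reticulum and FBXO32 of muscle protein turnover. Another, 823 kb from 103264105 to 104086727, contained FZD6, CTHRC1, SLC25A32 and DCAF13. A gap of 776 kb contained NDUFB9, of respiratory complex I, with TATDN1, RNF139, TMEM65 and TYW2.

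Of the other gene lists, some of which share genes, members with a summit lay mostly in the dense stretch. The list of 40 growth and transcription genes of the long arm is broad, and also holds genes of other roles, such as COL14A1, SNTB1 and COLEC10. Of its members, none of the 11 outside 100 to 130 Mb had a summit. The 10 with a summit (25.0%) were all among the 29 at 100 to 130 Mb. Besides CSMD3, COL14A1, ZFPM2, SNTB1, COLEC10 and HAS2 these were ANGPT1, an angiopoietin gene (fold enrichment 2.79), RSPO2, an activator of Wnt signalling (3.51), AZIN1, a regulator of polyamine synthesis (2.67), and SAMD12 (2.48). YWHAZ, GRHL2, TRPS1, EIF3H and EXT1 in the dense stretch, and PTK2 and NDRG1 past 130 Mb, had none. Of 33 genes in a list named for cohesin, replication and DNA repair, 3 had a summit (9.09%): DEPTOR, placed in this list although it is a kinase inhibitor, SPIDR and NSMCE2. Other members also have other roles, among them PLAG1, CHCHD7 and RIDA, which had no summit, so the share is not that of a strict class. The cohesin subunit gene RAD21, in the dense stretch, had none.

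Of 40 genes of the short arm linked to tumour suppression or growth signalling, such as DLC1, TUSC3 and FGFR1, NSD3 alone had a summit (fold enrichment 3.51, 5 fragments, q 0.779). None of 38 genes of mitochondria and energy metabolism had one, including UQCRB and COX6C of the respiratory chain, with their nearest summits 2.17 and 18.7 kb away, and the 7 members at 100 to 130 Mb. Among 32 genes listed for the defensin and LY6 clusters, THEM6 alone had a summit (2.62, 4 fragments, q 1). No gene with a defensin or LY6 name had one. Over all protein-coding genes the count was 20 of 97 at 100 to 130 Mb, where 29 members of the growth and transcription list lie. It was 1 of 292 below 45 Mb, where the short-arm genes lie. The shares of the lists are therefore not read against the whole chromosome.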

How the data were processed

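NUSAP1 was precipitated from AsPC1 chromatin in 1 library, with 1 input library beside it, and the peak list of the precipitate was used. Per the submitters' processing notes, peaks of build hg38 were made with the peak caller MACS2 (2.1.0), the aligner Bowtie (1.1.2), the trimmer Trimmomatic (0.33) and the demultiplexer bcl2fastq (2.17). Settings are not given in the sources used here. The deposited columns hold a display score, fold enrichment (a ratio), -log10 p and -log10 q of the authors' caller, and, as other deposited values, the summit offset in bp. The depth of the libraries is unknown.

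Fragments and background were solved from fold enrichment, taken as (fragments + 1) over (background + 1), and the Poisson p. A whole number matched -log10 p within 0.001 at 9043 summits, and 500 of 500 simulated summits were recovered. Genes came from the RefSeq table of GRCh38.p14, with 2448 genes on chromosome 8. Positions count from 1. Intervals are 95% exact Poisson or Wilson.

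Members, stretches and gene lists were chosen with earlier results of these data known. Genes were named by rule: those at summits with q under 0.05, at the 10 highest folds and the 10 smallest q, at ends, the 10 protein-coding and 5 long non-coding genes with most summits, up to 6 members with a summit per list, all genes listed around MYC, and those at the edge. Any others were named after their values were seen. Alternatives were stricter limits, merged summits, other windows, other gene-end distances and all genes in place of protein-coding ones. Computation used scipy 1.17.1 with pandas 2.3.3 and numpy 2.4.6, figures matplotlib 3.10.9, all under Python 3.11.15.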

Additional observations from a re-analysis of the deposited data

How the results depend on the processing

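Chromosome 8 kept 132 summits in the upper part of the list by q, 34 with 7 or more fragments, 2 with q under 0.05 and 1 with a fold enrichment of at least 5. These limits keep fewer summits by construction. The share of chromosome 8 summits at 100 to 130 Mb rose to 85.3% at 7 or more fragments, and the share of summits past 100 Mb that lie past 130 Mb fell to 3.33%. At q under 0.05 both were 50.0%, from 2 summits. Neither left its interval with summits within 1 kb merged, with the upper part by q or with a background under 3 times the lowest. Protein-coding genes with a summit near an end numbered 19 at 5 kb and 3 at 7 or more fragments, against 6. A wider distance can only add genes, and a stricter limit can only remove them. The cause of the changed shares at 100 to 130 Mb and past 130 Mb was not tested. The densest window had 8.50 to 12.0 summits per Mb under other window sizes and offsets, within the interval of the 9.20 given. No paired analysis was possible because there is 1 library of each kind. Single summits rest on 4 to 9 fragments, and the depth of the libraries is unknown.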

Other observations

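Of the 22 pairs of neighbouring chromosome 8 summits under 10 kb apart, 20 lay at 100 to 130 Mb, which holds 187 of all 257 neighbouring pairs and was chosen for its density. They included pairs in DEPTOR (2.89 and 5.58 kb apart), HAS2 (6.24 kb), CASC8 (8.50 kb) and LOC105375751 (0.675 kb, with 8 fragments at the stronger summit). Of the other 2, the pair at 46257672 and 46262824 stood 5.15 kb apart.

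Windows of similar density on other chromosomes had backgrounds in the same range. The 4 windows of chromosome 8 with 31 or more summits had median backgrounds of 0.949 to 1.13. The 62 such windows on 10 other chromosomes ran from 0.765 to 1.42, with a median of 0.984. Those 62 windows had a median of 23 protein-coding genes, while the 4 of chromosome 8 had 1 to 26.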
